A study of Homo sapiens with 4 samples.

Results

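CD24, CD44, EPCAM, PROCR, MUC1 and VIM are genes used to mark luminal, stem-like and mesenchymal states of mammary epithelial cells, and their RNA levels were compared between wild type (WT) MCF10A cells and MCF10A cells overexpressing HSF1. The 6 genes were taken by symbol and matched to Ensembl identifiers in a count table of 63856 genes, and all 6 were found there and in the table of normalized expression. MCF10A is a non-tumorigenic human breast epithelial line. The overexpressing cells were transduced with lentiviruses carrying HSF1 cDNA in the pLVX-Puro vector and selected with puromycin (HSF1-pLVX), and 2 libraries of each variant were sequenced as paired ends of 76 bases from total RNA depleted of ribosomal RNA. Both variants grew in the same medium with horse serum, insulin, hydrocortisone, EGF and cholera toxin. Libraries of empty-vector cells were not analysed here, so the introduced HSF1 and the transduction and selection cannot be told apart.

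CD24 is a small, heavily glycosylated surface protein held by a lipid anchor, and it is abundant on luminal mammary cells. CD44 is the main receptor for hyaluronan, a matrix polysaccharide, and cells with CD44 but little CD24 on their surface have been linked to stem-like behaviour in breast. EPCAM is an epithelial adhesion molecule, and MUC1 is a transmembrane mucin of the apical surface. PROCR is the endothelial protein C receptor, which also marks a population of mammary stem cells in the mouse. VIM encodes vimentin, the intermediate filament protein of mesenchymal cells. HSF1 is the transcription factor of the heat shock response and binds heat shock elements, inverted repeats of the unit GAA.

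Of the 6 genes, 5 have an entry in the RefSeq promoter table (GRCh38.p14), and EPCAM has none. The 250 bases before the RefSeq start are printed for the called genes with an entry, the ones that fell first, because the overexpressed protein is one that binds DNA. Letters in capitals mark matches, on either strand, to a pair of heat shock units (GAANNTTC or TTCNNGAA), a TATA box (TATAAA), a GC box (GGGCGG), the E-box CACCTG or the AP-1 site TGACTCA. The windows are chr6:106975628-106975877 on the minus strand for CD24 (the most upstream of its 3 entries), chr1:155192916-155193165 on the minus strand for MUC1 (the most upstream of its 2), chr20:35171822-35172071 on the plus strand for PROCR and chr10:17227991-17228240 on the plus strand for VIM.
CD24: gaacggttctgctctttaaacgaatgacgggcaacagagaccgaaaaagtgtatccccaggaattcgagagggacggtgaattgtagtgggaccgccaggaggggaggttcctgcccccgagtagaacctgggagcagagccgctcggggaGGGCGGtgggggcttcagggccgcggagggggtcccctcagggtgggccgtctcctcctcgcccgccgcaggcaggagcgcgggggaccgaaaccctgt
MUC1: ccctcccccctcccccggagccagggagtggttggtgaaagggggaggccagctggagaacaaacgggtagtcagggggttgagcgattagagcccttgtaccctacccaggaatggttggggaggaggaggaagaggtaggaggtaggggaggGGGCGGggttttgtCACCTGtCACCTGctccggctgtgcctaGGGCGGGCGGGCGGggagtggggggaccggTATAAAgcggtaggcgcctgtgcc
PROCR: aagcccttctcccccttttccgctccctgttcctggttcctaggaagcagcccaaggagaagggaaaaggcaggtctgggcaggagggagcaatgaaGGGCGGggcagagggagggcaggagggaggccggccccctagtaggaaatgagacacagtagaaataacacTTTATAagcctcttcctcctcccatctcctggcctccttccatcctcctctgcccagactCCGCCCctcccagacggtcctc
VIM: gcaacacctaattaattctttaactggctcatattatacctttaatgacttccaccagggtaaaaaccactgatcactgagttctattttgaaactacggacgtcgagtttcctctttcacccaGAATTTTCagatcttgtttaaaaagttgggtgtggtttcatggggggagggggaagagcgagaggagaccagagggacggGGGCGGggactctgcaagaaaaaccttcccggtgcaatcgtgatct
Among these 4 windows, a pair of heat shock units was present only in that of VIM, as GAATTTTC beginning 126 bases before the start. GAANNTTC occurs in 5.78% of the 35116 promoter windows of that table and TTCNNGAA in 6.62%. No member window held the 3-unit element (GAA, TTC and GAA, with NN between neighbours), which 0.441% of all windows hold. MUC1 held TATAAA 24 bases before its start, and PROCR held the same letters on the opposite strand 82 bases before its start, against 10.7% of all windows with a match. Among these 4 windows only that of MUC1 held CACCTG, at 82 and 75 bases before its start (17.5% of all windows). Another entry of CD24, not printed, held the same letters on the opposite strand, 249 bases before its start. All 4 windows held GGGCGG (42.6% of all windows), MUC1 with 4 matches of which 3 overlap. The AP-1 letters, found in 4.20% of all windows, were in none of the 4. The window of VIM had a GC content of 46.0%, against 65.6% for CD24, 66.0% for MUC1 and 60.0% for PROCR and a median of 58.0% over all windows. These matches describe letters in a short window and were not tested for binding.

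The 4 libraries held between 18688109 and 24184285 counts. HSF1 itself was at 200.4 and 189.2 CPM (counts scaled to a common library size after TMM normalization) in the WT libraries and at 982.4 and 998.6 CPM in the HSF1-pLVX libraries. Its log2 fold change, given here and below ± standard error, was 2.35 ± 0.148 (adjusted p = 5.77e-55 by the quasi-likelihood test of edgeR, adjusted over all genes tested). All 12 genes of a list of basal-type mammary epithelial genes passed the filter on low counts. Their summed level was 27537 and 26026 CPM in the WT and 15454 and 16222 CPM in the HSF1-pLVX libraries. Of 10 endothelial markers 2 were tested and 1 was higher in HSF1-pLVX cells, with a summed level of 2.72 and 1.94 CPM in the WT and 12.8 and 13.2 CPM in the HSF1-pLVX libraries. Of 12 blood cell markers 1 was tested, and it was higher, at 0.320 and 0.323 CPM against 2.19 and 2.06 CPM. The WT and HSF1-pLVX cells differed broadly. Of 15830 genes tested, 5138 were called higher and 5171 lower at an adjusted p of 0.05.

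Of the 6 markers, 3 fell in HSF1-pLVX cells (CD24, MUC1 and EPCAM), 2 rose (VIM and PROCR) and CD44 did not pass the test. Of all genes tested, 65.1% were called, 32.5% higher and 32.7% lower. All 5 called markers changed at least 2-fold, 2 upwards and 3 downwards, against 14.9% of all genes upwards, 14.0% downwards and 29.0% in either direction. The 6 were chosen with earlier results of these data known, so these shares are a description only. The median log2 fold change over the 6 was -0.62, against 0.02 over all genes tested. The libraries of the variants did not overlap for any of the 6, which was also so for 83.1% of all genes tested. With 2 libraries per variant, an exact permutation of a single gene's values cannot give a two-sided p below 0.33, so the test draws on the spread of other genes.

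**Figure D1:**
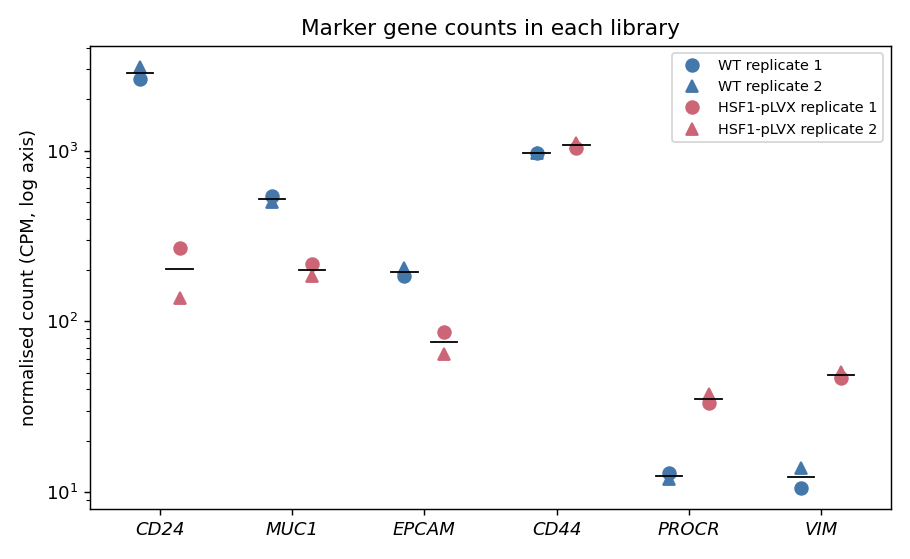
Normalised counts (CPM, log axis) of the 6 marker genes in each library, with WT in blue, HSF1-pLVX in red, replicate 1 as circles, replicate 2 as triangles and the mean of each variant as a bar. The HSF1-pLVX points lie below the WT points for CD24, MUC1 and EPCAM and above them for PROCR and VIM, while those of CD44 are close together.

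CD24 (ENSG00000272398.5, minus strand of chromosome 6 of hg38, 106969831 to 106975627) had the largest change. It was at 2633 and 3082 CPM in WT replicates 1 and 2 and at 268.0 and 137.6 CPM in HSF1-pLVX replicates 1 and 2. Both HSF1-pLVX libraries were far below both WT libraries, with a 9.83-fold gap between the nearest values. The counts behind these values were 49429, 57267, 6728 and 2733. The mean was 2858 ± 317 CPM in WT and 203 ± 92.2 CPM with HSF1 overexpressed (SD, n = 2 each), so 7.10% of the WT level remained. The log2 fold change was -3.89 ± 0.197 (95% interval -4.27 to -3.50, adjusted p = 6.52e-84 in edgeR's quasi-likelihood test), and 1.14% of all genes tested had a larger fall. The HSF1-pLVX libraries themselves differed 1.95-fold in CD24, the widest spread within a variant among the 6 genes, against 1.17-fold between the WT libraries. Within replicate 1 the log2 difference was -3.30 and within replicate 2 it was -4.49. Both values lay outside the 95% interval above, which does not use the spread of CD24 itself. Without the replicate block the interval was -4.32 to -3.31, and DESeq2 with the block gave a standard error of 0.55. Fewer cells with CD24 RNA and less CD24 RNA per cell cannot be told apart in bulk libraries. The 3 CD24 pseudogenes examined held between 0 and 5 counts per library, and the counting of reads that match several places is not stated. Pseudogenes on chromosome Y were not examined.

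MUC1 (ENSG00000185499.16, minus strand of chromosome 1, 155185824 to 155192916) was at 543.3 and 499.5 CPM in the WT libraries and at 217.1 and 184.5 CPM in the HSF1-pLVX libraries. The mean fell from 521 ± 31.0 to 201 ± 23.1 CPM (SD, n = 2 each), to 38.5% of the WT level. The log2 fold change of MUC1 was -1.38 ± 0.129 (adjusted p = 1.39e-25). The replicates were close, with log2 differences of -1.32 and -1.44 within replicates 1 and 2. MUC1 carries a repeated coding segment, to which short reads may not align uniquely.

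EPCAM (ENSG00000119888.10, plus strand of chromosome 2, 47345158 to 47387601) fell by about as much. Its values were 185.0 and 204.1 CPM in the WT libraries and 86.8 and 64.5 CPM in the HSF1-pLVX libraries. The mean went from 195 ± 13.6 to 75.6 ± 15.7 CPM (SD, n = 2 each), 38.9% of the WT level, and the log2 fold change was -1.37 ± 0.110 (adjusted p = 4.05e-34). As with CD24, HSF1-pLVX replicate 2 was the lower library, and the log2 difference was -1.09 within replicate 1 and -1.66 within replicate 2. Both values lay outside the 95% interval of EPCAM, -1.59 to -1.16, which does not use the spread of EPCAM itself. EPCAM and MUC1 were lowered by nearly the same factor, while CD24 was lowered far more. Of all genes tested, 9.67% had a larger fall than EPCAM and 9.60% than MUC1.

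CD44 (ENSG00000026508.17, plus strand of chromosome 11, 35138870 to 35232402) was abundant in both variants. It was at 967.4 and 972.2 CPM in the WT libraries and at 1038 and 1103 CPM in the HSF1-pLVX libraries. Both HSF1-pLVX values were above both WT values, by 1.07-fold between the nearest. The log2 fold change was 0.14 with a 95% interval of -0.17 to 0.45 and did not pass the threshold (adjusted p = 0.437), and without the replicate block the interval was -0.07 to 0.36. The interval leaves out a 2-fold change in either direction. CD44 is spliced into many forms, which counts per gene do not separate. The antisense gene CD44-AS1 shares 84 bases with its exons and held between 10 and 61 counts per library.

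PROCR (ENSG00000101000.5, plus strand of chromosome 20, 35172073 to 35216240) was low in WT cells, at 12.9 and 12 CPM, and rose to 33.3 and 37.5 CPM in the HSF1-pLVX libraries. These values rest on 242, 223, 837 and 744 counts. The mean rose 2.84-fold, from 12.4 ± 0.629 to 35.4 ± 2.91 CPM (SD, n = 2 each). PROCR had a log2 fold change of 1.504 ± 0.125 (adjusted p = 4.55e-32), and the values within replicates 1 and 2 were 1.37 and 1.64. Of its exonic bases, 12.9% are also exonic in an antisense gene without a symbol (ENSG00000278367.1), which held at most 1 count in a library.

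VIM (ENSG00000026025.15, plus strand of chromosome 10, 17228259 to 17237593) was, per length, the lowest of the 6 in WT cells. It was at 10.7 and 13.9 CPM in the WT libraries and at 46.6 and 50.5 CPM in the HSF1-pLVX libraries, from 200, 258, 1169 and 1003 counts. The HSF1-pLVX values lay at least 3.35-fold above the WT values, and the means differed 3.95-fold. VIM had a log2 fold change of 1.99 ± 0.121 (adjusted p = 2.03e-58), and 4.01% of all genes tested had a larger rise. The antisense gene VIM-AS1 shares 12.4% of the exonic bases of VIM and went from 2 and 3 counts in the WT libraries to 12 and 8 in the HSF1-pLVX libraries. Whether reads in the shared bases were assigned by strand is not known, since the strand setting of the counting is not stated.
Fibroblasts express VIM strongly. In a list of 12 fibroblast markers, 6 passed the filter, of which 4 were lower and 1 higher in HSF1-pLVX cells, against 32.7% lower and 32.5% higher among all genes tested. Their summed level was 579.4 and 604.2 CPM in the WT libraries and 277.6 and 263.0 CPM in the HSF1-pLVX libraries. Of the markers not tested, COL1A2, COL3A1 and LUM held at most 1 count in any library and THY1 at most 2. PDGFRB held 2 and 0 counts in the WT and 10 and 5 in the HSF1-pLVX libraries. PDGFRA held 6 and 4 counts in the WT and 1 and 1 in the HSF1-pLVX libraries. In that list MFAP5, a microfibril protein, fell from 114 ± 5.86 to 1.89 ± 0.538 CPM (SD, n = 2 each), and FBLN1, the most abundant per length, went from 252 ± 12.97 to 207 ± 0.951 CPM (log2 fold change -0.29, adjusted p = 0.0238). DCN, a small matrix proteoglycan, was at least 25.3-fold higher against a floor of 3 counts per library, with 1 and 3 counts in the WT libraries and 94 and 87 in the HSF1-pLVX libraries. The part of such cells in the rise of VIM was not tested.

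**Figure D2:**
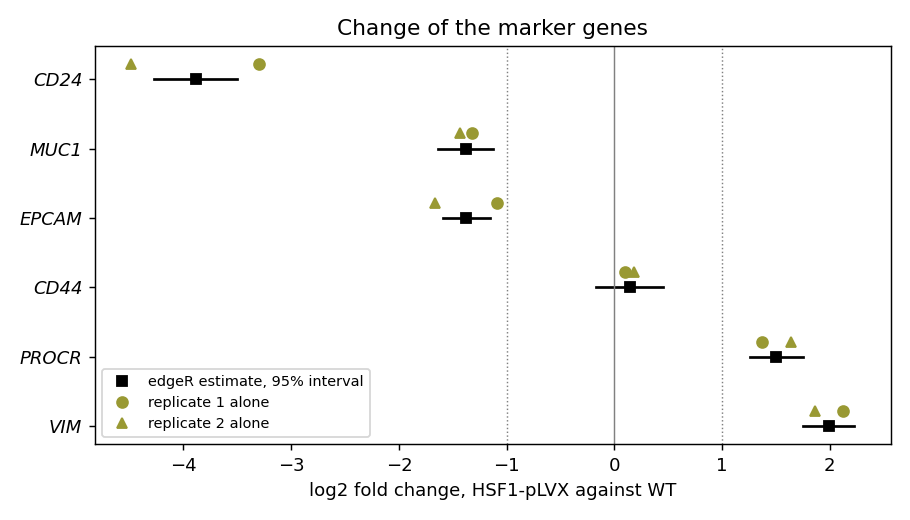
Log2 fold change of each marker gene in HSF1-pLVX against WT cells (squares, edgeR estimate with its 95% interval) and the log2 difference within replicate 1 (circles) and replicate 2 (triangles). The dotted lines mark 2-fold changes, and CD44 is the only gene whose interval includes 0.

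Without the replicate block, the adjusted p of the 5 called genes lay between 3.38e-09 and 1.96e-07 in edgeR's quasi-likelihood test and the calls were the same. The much smaller p-values above, and the standard errors and intervals with the block, come with a spread shared fully between genes.

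To compare levels between genes, counts were divided by exonic length (RPKM, the CPM per 1000 exonic bases). In WT cells CD24 was the most abundant of the 6, at 850.2 and 995.2 RPKM, and ranked 29 among all 15830 genes tested. MUC1 followed at 115.2 and 105.9, CD44 at 96.2 and 96.7 and EPCAM at 73.4 and 81.0 RPKM. PROCR, at 7.60 and 7.08, and VIM, at 2.07 and 2.69 RPKM, were far lower, and no neighbours in this order overlapped. In HSF1-pLVX cells CD44 came first, at 103.2 and 109.7 RPKM. CD24 was at 86.5 and 44.4 and MUC1 at 46.0 and 39.1 RPKM, and the ranges of CD24 and MUC1 overlapped. EPCAM, PROCR and VIM kept their order below them, at means of 30.03, 20.9 and 9.41 RPKM. CD24 made up 74.3 and 77.2% of the summed level of the 6 genes in the WT libraries and 29.0 and 17.7% in the HSF1-pLVX libraries, while CD44 went from 8.40 and 7.50% to 34.5 and 43.8%. CD24 moved to rank 553, VIM from rank 8978 to 4066 and PROCR from rank 5085 to 1892. The exonic length joins the exons of all isoforms, which lowers the RPKM of a gene whose expressed isoform is short.

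**Figure D3:**
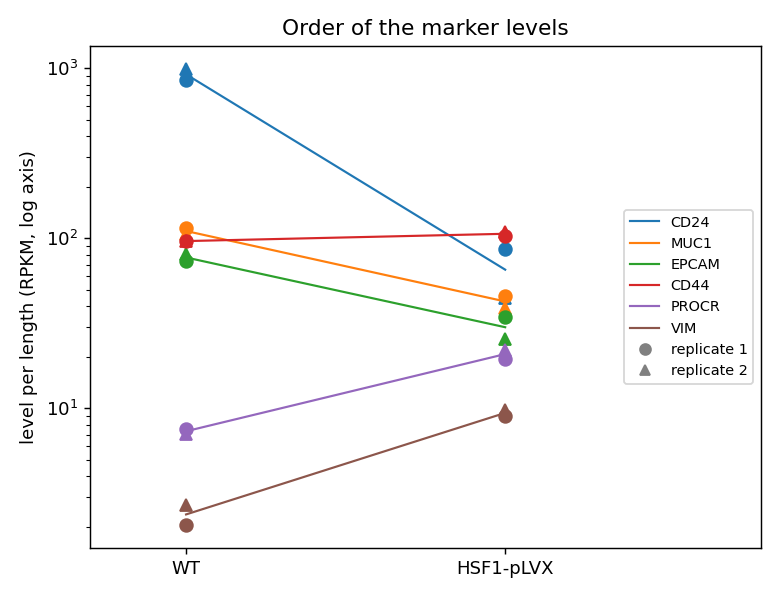
Level per length (RPKM, log axis) of the 6 marker genes in WT and HSF1-pLVX cells, with circles for replicate 1, triangles for replicate 2 and a line between the means. The line of CD24 crosses that of CD44, and the lines of PROCR and VIM approach those of EPCAM and MUC1 from below.

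The study paired CD44 with CD24 and EPCAM with ITGA6 in flow cytometry. Here the RNA ratio of CD44 to CD24 was described within each library, and beside it those of VIM to EPCAM and CD44 to EPCAM, which are not pairs of the study. CD24 exceeded CD44 per length by 8.84-fold and 10.3-fold in the WT libraries. In the HSF1-pLVX libraries CD44 exceeded CD24, by 1.19-fold in replicate 1 and 2.47-fold in replicate 2. The log2 ratio of CD44 to CD24 went from -3.25 ± 0.156 to 0.78 ± 0.743 (SD, n = 2 each), a shift of 4.03. CD44 itself differed by 0.14 on this scale, so most of the shift lay in CD24. The log2 ratio of VIM to EPCAM went from -5.03 ± 0.170 to -1.66 ± 0.384, a shift of 3.37, and EPCAM remained 3.82-fold and 2.62-fold above VIM in the HSF1-pLVX libraries. The log2 ratio of CD44 to EPCAM went from 0.32 ± 0.0956 to 1.84 ± 0.365. ITGA6, the integrin alpha-6 subunit, was at 411.6 and 409.4 CPM in the WT libraries and 555.4 and 558.8 CPM in the HSF1-pLVX libraries (log2 fold change 0.44, adjusted p = 0.0021), and it is named here because the study used it, after its values were seen. The ratios were not tested.

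**Figure D4:**
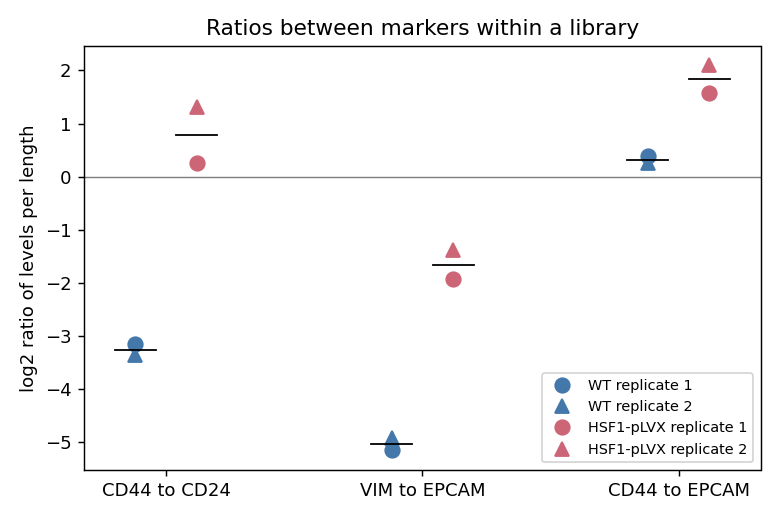
Log2 ratio of levels per length between pairs of markers in each library, with WT in blue, HSF1-pLVX in red, circles for replicate 1, triangles for replicate 2 and bars for the means. The ratio of CD44 to CD24 lies below 0 in both WT libraries and above 0 in both HSF1-pLVX libraries, while that of VIM to EPCAM stays below 0 in all 4.

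The rule used by the study, a ratio of more than 2.0 or less than 0.50 within each replicate number, was applied to the table normalized by the authors. VIM passed upwards with ratios of 4.002 and 3.46 within replicates 1 and 2, and PROCR with 2.41 and 2.96. CD24 passed downwards with ratios of 0.0988 and 0.0446, EPCAM with 0.457 and 0.317 and MUC1 with 0.388 and 0.368. CD44, at 1.04 and 1.127, did not pass. Over all 22321 rows of that table, 5.00% passed upwards and 6.42% downwards. EPCAM in replicate 1 was the value nearest to a limit of the rule.

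Genes with the most similar profile were sought by the root mean square difference in centred log2 CPM over the 4 libraries, among 7967 genes with at least 200 counts in every library. For CD24 these were the keratin gene KRT80, which fell from 211.6 and 219.7 to 21.5 and 10.4 CPM at a distance of 0.072, and IGFL1 at 0.134. KRT80 was the only gene within 0.1 of CD24. For VIM they were VEGFA, the vascular endothelial growth factor (distance 0.068, log2 fold change 1.94), and TFPI2 (0.078 and 2.005), with 8 genes within 0.1. TRIM2 and ARRDC4 were nearest to EPCAM, SECISBP2L and EFEMP1 to MUC1, and NLE1 and CLMP to PROCR, with 47, 106 and 79 genes within 0.1. PPIL4 and SLC39A6 were nearest to CD44, where 1208 genes lay within 0.1. With 4 libraries in 2 variants such a likeness describes little beyond the fold change itself.

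Genes that work with these markers were followed in lists, and the counts below are to be read against the 32.5% of all genes called higher and 32.7% called lower. For CD44, the list held hyaluronan enzymes and receptors, linkers to actin, splicing factors and proteases. Of 18 tested genes, 6 rose, 6 fell and 6 did not pass, with a median log2 fold change of -0.08. HAS3, a hyaluronan synthase, rose from 2.38 ± 0.358 to 27.4 ± 0.643 CPM (SD, n = 2 each). CEMIP2, a hyaluronidase of the cell surface, fell from 108 ± 6.16 to 18.1 ± 1.95 CPM. EZR, which encodes the actin linker ezrin and was the most abundant of the list per length, fell (log2 fold change -1.58 ± 0.158).

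Among the partners of EPCAM, 13 of 17 tested genes fell, 1 rose and 3 did not pass, with a median log2 fold change of -0.69. CLDN1, a claudin of tight junctions, had the largest fall, from 405 ± 10.6 to 92.3 ± 8.41 CPM. ADAM17, a protease that sheds surface proteins, was the gene that rose (log2 fold change 0.56 ± 0.104).

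In the list of PROCR and the thrombin pathway, 5 of 13 tested genes rose and 7 fell, with a median log2 fold change of -0.71. F3, the tissue factor gene, fell from 1518 ± 222 to 401 ± 80.2 CPM. SERPINA5, the protein C inhibitor, had the largest rise among genes with at least 50 counts in each HSF1-pLVX library (log2 fold change 2.22 ± 0.318), from 0.829 ± 0.259 to 3.88 ± 0.147 CPM. PROCR and SERPINA5 thus rose while F3 fell.

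Few other mucins were expressed. Of 20 listed, 6 passed the filter, 3 fell and 2 rose, with a median log2 fold change of -0.88. MCAM, an adhesion molecule that is also named MUC18 but is not a mucin, was the most abundant of the 6 per length. It fell from 306 ± 1.72 to 52.0 ± 8.48 CPM. By CPM, MUC16 was higher than MCAM, and it fell from 548 ± 41.7 to 257 ± 88.3 CPM. MUC19 rose from 4.92 ± 0.570 to 11.5 ± 1.31 CPM. In the list of partners of CD24 and of enzymes that build its sugar chains, 9 of 14 tested genes fell and 3 rose (median -0.52). L1CAM, a neural adhesion molecule, fell from 92.0 ± 1.11 to 4.25 ± 0.746 CPM, and FUT3, a fucosyltransferase of the Lewis antigens, from 110 ± 4.43 to 30.5 ± 1.804 CPM. HMGB1, a chromatin protein that is also a ligand when released, rose (log2 fold change 0.66 ± 0.111). SIGLEC10, a receptor for CD24 on immune cells, held at most 2 counts in a library.

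Among relatives and partners of vimentin, 5 of 13 tested genes rose, 3 fell and 5 did not pass, with a median log2 fold change of 0.13. No gene of a cytoplasmic filament protein in the list was among those that rose. DES and PRPH, which like VIM encode type III filaments, held at most 1 count in a library. GFAP, also of type III, held 9 and 12 counts in the WT and 18 and 12 in the HSF1-pLVX libraries. It did not pass (log2 fold change 0.24). AURKB, a mitotic kinase that phosphorylates vimentin, rose from 4.41 ± 0.687 to 19.9 ± 2.32 CPM. PLEC, the filament linker plectin, was the most abundant of the list per length in WT cells and had its largest fall among well counted genes (log2 fold change -1.35 ± 0.215).

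In the list of other stem and basal markers, 9 of 21 tested genes rose and 9 fell, with a median log2 fold change of 0.44. NGFR, the low-affinity nerve growth factor receptor, rose from 1.39 ± 0.217 to 182 ± 2.78 CPM. KRT5, a basal keratin, rose from 2113 ± 35.9 to 4592 ± 422 CPM. LGR6, an R-spondin receptor, fell from 5.52 ± 0.570 to 0.249 ± 0.210 CPM. Of 18 tested luminal markers, 11 fell and 5 rose (median -0.86). KRT8 fell from 3165 ± 11.1 to 335 ± 67.2 CPM and KRT7, the most abundant per length, from 5326 ± 192 to 2860 ± 263 CPM, both keratins of simple epithelia. LTF, the milk protein lactoferrin, was at least 35.9-fold higher, from 2 and 1 counts in the WT libraries to 119 and 135 in the HSF1-pLVX libraries. EPCAM and MUC1 lay beyond the median of the luminal list on the side of the falls, and CD24 below every tested gene of it, whose lowest log2 fold change was -3.25.

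VIM was compared with 22 other mesenchymal markers, of which 19 were tested. In this list 6 rose, 7 fell and 6 did not pass, with a median log2 fold change of 0.12. ZEB2, a repressor of epithelial genes, rose from 0.267 ± 0.150 to 2.32 ± 0.414 CPM. Its WT level was close to the floor, so the size of this rise is uncertain. TAGLN, the actin-binding protein transgelin, fell from 388 ± 0.102 to 11.4 ± 0.0320 CPM. Called at any size, the counts in both directions were near those of all genes tested. At 2-fold or more, 3 of the 19 rose and 6 fell, against 14.9% of all genes upwards and 14.0% downwards. The summed level of the list was 14605 and 14907 CPM in the WT and 4278 and 3352 CPM in the HSF1-pLVX libraries.
In the list of basal-type genes used to check the cell type, 4 of 12 rose and 5 fell, with a median of -0.15. TP63, the transcription factor of basal epithelia, rose from 9.69 ± 0.990 to 108 ± 2.86 CPM. KRT14 fell from 530 ± 17.2 to 45.1 ± 2.38 CPM, and KRT17, the most abundant per length in WT cells, from 7194 ± 41.2 to 1220 ± 51.5 CPM. The basal keratins KRT5 and KRT14 thus moved in opposite directions.

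**Figure D5:**
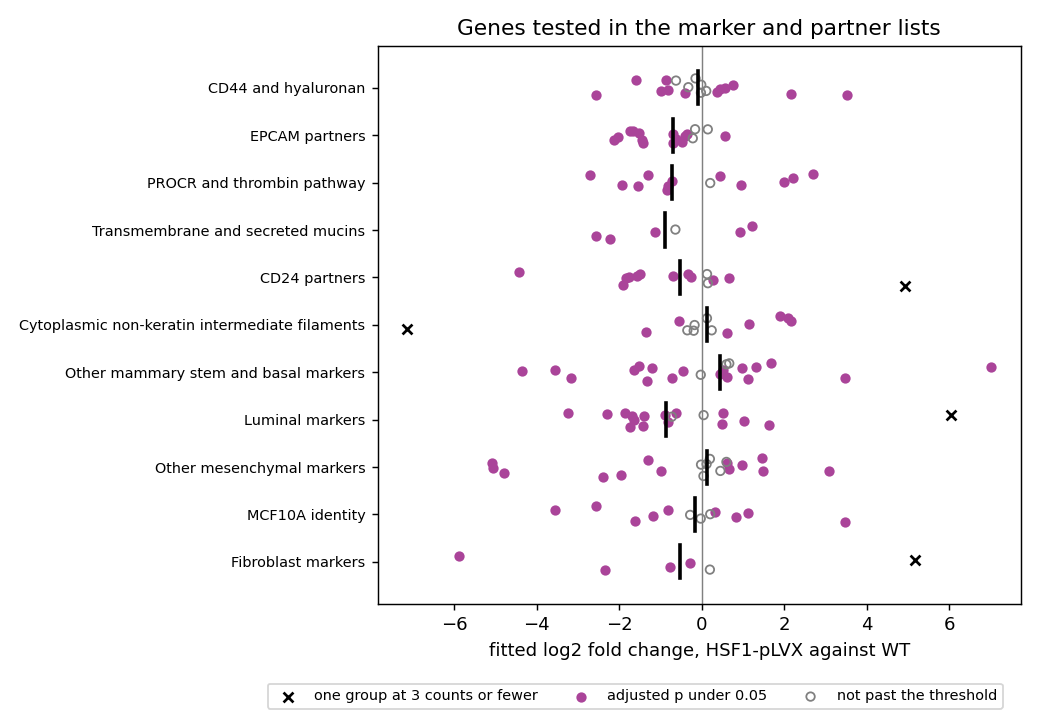
Fitted log2 fold change in HSF1-pLVX against WT cells of every tested gene of each list, with filled points for genes called at an adjusted p of 0.05, open points for those not called, crosses for genes at 3 counts or fewer in both libraries of a variant, where the fitted value depends on the prior count, and a bar for the median. The points of the EPCAM partners lie mostly below 0, while those of the mesenchymal and the stem and basal lists spread to both sides.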

How the data were processed

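RNA-seq counts of 4 MCF10A libraries, 2 per variant, were analysed. Per the labels and the study's methods, the authors aligned reads to hg38 with HISAT2 2.0.5, processed them with SAMtools 1.13, counted them per gene with featureCounts 1.6.5 and deposited raw counts. The strand, overlap and multi-mapping settings are not given in the sources used here. A second deposited table holds log2-like values normalized by the authors with DESeq2 1.32.0. Each gene's exonic length is the one in the deposited count table. Symbols came from GENCODE release 44.

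Counts were tested with edgeR 4.0.16 (R 4.3.3) by TMM normalization, filterByExpr and the quasi-likelihood test. Replicate numbers entered as a block, since the ratios of the study are formed within them. Benjamini-Hochberg adjustment covered all 15830 tested genes. Alternatives used DESeq2 1.42.0 and limma 3.58.1. The deviations of same-numbered libraries had a correlation of 0.00014 over all tested genes and -0.11 above 8 CPM, so the numbers were not seen to pair the libraries, and no source says that they share a culture or day. The study calls these libraries biological replicates. With the block, p-values rest on a spread between libraries that is shared fully between genes, not on each gene's own spread. Library pairs differed by more than sampling noise (chi-square per degree of freedom 7.10 and 9.03).

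The members and lists were chosen with earlier results of these data known. Beside the members and HSF1, genes were named as the largest rise and largest fall called in a list with the same sign in both replicates and at least 50 counts in each library of the higher variant, the highest level per length of a list, the 2 most similar profiles of a member, or an exonic overlap with a member. ITGA6, MUC16, SIGLEC10, DES, PRPH, GFAP, COL1A2, COL3A1, LUM, PDGFRA, PDGFRB and THY1 were added after their values were seen. Of the genes this rule picks, 2 are not reported here.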

Additional observations from a re-analysis of the deposited data

How the results depend on the processing

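The fold changes of the 6 markers and of HSF1 kept their direction and their side of the threshold under 11 alternatives each. With each library left out in turn and no block, where the lone library is assumed to vary like the other variant, log2 fold changes ranged from -4.38 to -3.41 for CD24, -1.50 to -1.26 for MUC1, -1.59 to -1.16 for EPCAM, 0.11 to 0.19 for CD44, 1.43 to 1.59 for PROCR and 1.82 to 2.19 for VIM. The adjusted p of CD44 stayed between 0.0997 and 0.598 over all alternatives, and the largest of the others was 0.00481 (MUC1, without HSF1-pLVX replicate 2). Without the replicate block, 5175 genes were called higher and 5253 lower, against 5138 and 5171 with it, and no call of a marker changed. With crossed replicate numbers, chosen after seeing the data, these counts were 5429 and 5487. DESeq2's Wald test called 3318 genes higher and 1 mucin gene higher, and the cause was not tested. Leaving out libraries gave 1 to 2 mucin genes higher, 1 to 2 fibroblast markers higher (2 without WT replicate 2) and 2 to 4 lower (2 without HSF1-pLVX replicate 2). Without the filter, 2 endothelial markers were higher. As counts without length, which shifts both variants by the same term, the mean log2 ratios in WT and HSF1-pLVX cells were -1.56 and 2.48 for CD44 to CD24, -4.00 and -0.63 for VIM to EPCAM and 2.32 and 3.84 for CD44 to EPCAM. As TPM, the log2 difference of CD44 was 0.056. VIM and PROCR rest on the fewest counts of the members.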
